A study of Homo sapiens with 18 samples.

Results

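The mevalonate pathway enzymes described here are ACAT2, HMGCS1, MVK, PMVK, MVD, IDI1, FDPS, FDFT1 and SQLE, in pathway order from acetyl-CoA to squalene epoxide. They were chosen by name, though with earlier results of these data known, and each was taken from its probe set in the deposited array table. Of these 9 genes, 8 were measured, among 18417 genes with a probe set of their own. FDFT1, the squalene synthase gene, had no probe set under its symbol in the annotation used and is not analysed here. Each of the 8 has a single probe set, so no choice among probe sets affected them. FDPS also has 2 probe sets that it shares with a pseudogene copy, and these were left out.

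Cells build cholesterol and isoprenoids from acetyl-CoA by this route. Its early steps make mevalonate, the middle steps phosphorylate and decarboxylate it to 5-carbon isoprenoid units, and the late steps join these units into farnesyl diphosphate and squalene. The genes are known as targets of SREBP-2, a transcription factor that is held in the endoplasmic reticulum by INSIG proteins when sterols are plentiful and is released when they are scarce. Endothelial cells can also take cholesterol up from lipoproteins, so the activity of this route in them is known to depend on their sterol supply.

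Human umbilical vein endothelial cells (HUVEC, labelled as a normal endothelial line) were profiled on 18 Affymetrix arrays, 3 in each of 6 groups. One control group was untreated, with no time given, and the other was kept for 3 days with beads carrying IgG alone. Over the same 3 days, 4 groups were given bead-captured extracellular vesicles (EVs), small membrane-bound particles released by cells. The source was either Jurkat, a line from a human T cell leukaemia, or JinB8, a CD47-deficient mutant made from it; CD47 is a receptor on the cell surface. From each line, vesicles were captured either through the tetraspanin CD63 (CD63+) or through MHC class 1 (MHC1+). JinB8 and Jurkat are each 1 line, so CD47 and any other difference between the lines cannot be told apart. The conditioned medium of the flasks was pooled before vesicles were purified, so arrays of a group may share 1 vesicle preparation. The labels do not say whether the 3 arrays of a group are separate cultures. The p-values therefore cover just the variation among these samples, and that variation could be technical.

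Values are log2 signals from RMA, a method that puts arrays on a common scale, so a difference of 1 is a 2-fold difference in signal. Signals of different genes were not compared, because probe sets differ in brightness. A gene is called at an adjusted p under 0.05 in limma, with Benjamini-Hochberg adjustment over all 18417 genes. Replicate 3 of both control groups stood apart from the other arrays over all genes. Their median correlation with the remaining arrays was 0.649 and 0.636, whereas the other 16 arrays correlated pairwise at 0.932 or more. Their mean over 12 endothelial markers was 7.02 and 6.13, against 9.11 to 9.35 in the other 16. The markers did not all fall. CLDN5 was higher in both, at 8.52 in the untreated one, against 5.94 to 6.67 in the other 16. EGFL7 was higher in the untreated one alone, at 8.64. The remaining markers, such as PECAM1 and CDH5, were lower in both. Their mean over 11 measured T cell markers was 5.44 and 5.31, against 4.10 to 4.64 in the other 16 arrays. Over 9 fibroblast and smooth muscle markers it was 6.05 and 5.53, against 5.04 to 5.64 in the other 16. In the untreated one the rise was therefore not confined to T cell markers. The part of these marker levels in the enzymes' values was not tested. Jurkat MHC1+ replicate 1 was intermediate, with a median correlation of 0.947 and an array SD of 2.01. The remaining 15 arrays had SDs of 2.05 to 2.25, and the 2 discordant controls 1.56 and 1.57. Results are therefore given for all 18 arrays, for 16 (without both discordant controls) and for 15 (also without Jurkat MHC1+ replicate 1).

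The promoters of the measured enzymes were compared with the binding letters known for SREBP-2 and its partners NF-Y and Sp1, because 5 of the 8 genes varied together across the arrays, as described below. RefSeq promoter windows of 300 bases (250 before the start, 50 after, GRCh38.p14) were matched for 6 of the 8 genes, with 9 start sites. ACAT2 and SQLE, both among those 5 genes, were not matched, whereas MVK, PMVK and MVD, which are outside the 5, were. The stretches before the start are shown for HMGCS1, MVD and FDPS, as examples of an early, a middle and a late enzyme with several NF-Y boxes, 5' to 3' on the gene's strand, with every CCAAT or its reverse complement ATTGG in capitals. HMGCS1 (chr5:43313413-43313662, minus strand) and MVD (chr16:88663092-88663341, minus strand) are shown over 250 bases, and FDPS (chr1:155308655-155308865, plus strand) over the 211 bases that do not run into the neighbouring gene PKLR.
HMGCS1: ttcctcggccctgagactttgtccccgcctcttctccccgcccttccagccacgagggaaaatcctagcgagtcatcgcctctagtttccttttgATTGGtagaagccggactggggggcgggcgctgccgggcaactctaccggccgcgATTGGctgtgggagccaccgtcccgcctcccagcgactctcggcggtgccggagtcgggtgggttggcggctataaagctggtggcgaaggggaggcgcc
MVD: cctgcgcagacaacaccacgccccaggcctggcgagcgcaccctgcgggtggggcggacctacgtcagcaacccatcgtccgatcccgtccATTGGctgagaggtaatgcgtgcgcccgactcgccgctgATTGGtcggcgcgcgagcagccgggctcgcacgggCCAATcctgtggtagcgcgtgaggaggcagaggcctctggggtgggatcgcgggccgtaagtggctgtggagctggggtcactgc
FDPS: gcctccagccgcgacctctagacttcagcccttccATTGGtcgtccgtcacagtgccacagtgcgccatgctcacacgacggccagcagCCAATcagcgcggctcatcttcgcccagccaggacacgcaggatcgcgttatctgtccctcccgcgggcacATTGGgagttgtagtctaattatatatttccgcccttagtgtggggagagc

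CCAAT, searched on both strands, occurred in the windows of 5 of 6 genes (HMGCS1, MVK, MVD, IDI1 and FDPS) and in 6 of their 9 windows, against 34.6% of 35116 promoter windows of the same length. These 6 windows held at least 2 copies each, as did 10.8% of all windows. MVK held the most, 5, between 210 and 46 bases before the start, and 2 windows of IDI1 held 3 and 2. Of those 3, the copies at 132 and 129 bases before the start overlap on opposite strands. These 2 windows of IDI1 share part of their sequence, as do the windows of HMGCS1. HMGCS1 held 2 copies, at 155 and 100 bases before the start, MVD held 3, at 159, 120 and 85, and FDPS held 3, at 176, 122 and 51. PMVK held none in its window. The Sp1 letters GGGCGG occurred in all 9 windows, against 45% of all windows. The sterol element TCACNCCAC occurred in none of the 9 and in 1.13% of all windows, and its core CACNCCAC, which overlaps it, in 1 window of IDI1 and in 5.87% of all windows. These matches describe the letters in the windows and do not show where a factor binds.

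Among the early enzymes, ACAT2 encodes the cytosolic thiolase that joins acetyl-CoA units. Its level was 6.30, 6.55 and 5.07 in the untreated arrays (replicates 1 to 3) and 6.62, 6.39 and 3.91 in the bead arrays. With Jurkat EVs it was 7.50, 7.59 and 7.88 (CD63+) and 5.43, 7.11 and 7.50 (MHC1+). With JinB8 EVs it was 7.36, 8.30 and 7.33 (CD63+) and 8.04, 8.43 and 8.24 (MHC1+). Thus 11 of 12 EV arrays lay above every control array, and the exception was Jurkat MHC1+ replicate 1. Against beads the 4 EV groups averaged 1.92 ± 0.51 higher (SE, 18 arrays), 1.06 ± 0.37 higher in 16 arrays and 1.21 ± 0.20 higher in 15, with limma adjusted p of 0.525, 0.999 and 0.0175.

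HMGCS1 encodes the cytosolic synthase that makes HMG-CoA. It stood at 5.87, 6.67 and 4.35 in the untreated arrays and at 6.68, 6.52 and 5.11 with beads. Jurkat EVs gave 7.72, 8.08 and 7.82 (CD63+) and 5.68, 7.53 and 7.63 (MHC1+), and JinB8 EVs gave 8.23, 8.61 and 7.68 (CD63+) and 7.99, 8.50 and 8.00 (MHC1+). Again 11 of 12 EV arrays exceeded all controls, with the same exception. The 4 EV groups differed from beads by 1.68 ± 0.47 in 18 arrays, 1.19 ± 0.38 in 16 and 1.34 ± 0.21 in 15 (adjusted p 0.525, 0.999 and 0.0129 by limma). Against untreated cells the difference was 2.16 ± 0.47, 1.51 ± 0.38 and 1.67 ± 0.21, with a limma adjusted p of 0.002 in the 15 arrays.

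The 3 enzymes that turn mevalonate into isopentenyl diphosphate followed other patterns. MVK, the mevalonate kinase gene, was at 5.00, 4.87 and 5.95 in untreated and 4.77, 4.87 and 5.53 in bead arrays. Its levels were 5.33, 5.42 and 5.65 with Jurkat CD63+ EVs, 5.28, 5.20 and 5.26 with Jurkat MHC1+ EVs, 5.18, 5.88 and 5.08 with JinB8 CD63+ EVs and 5.69, 5.80 and 5.39 with JinB8 MHC1+ EVs. Without the discordant controls, all 12 EV arrays lay above the 4 controls, by at least 0.08, whereas replicate 3 of untreated cells exceeded every EV array. The difference from beads was 0.37 ± 0.23 in 18, 0.61 ± 0.17 in 16 and 0.60 ± 0.16 in 15 arrays, and none of these was called (limma adjusted p 0.525, 0.673 and 0.367).

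PMVK encodes phosphomevalonate kinase. It was at 5.21, 5.14 and 6.03 in untreated, 5.24, 5.19 and 5.95 in bead, 5.22, 5.17 and 5.24 in Jurkat CD63+ and 5.42, 5.30 and 5.27 in Jurkat MHC1+ arrays. JinB8 CD63+ arrays gave 4.96, 4.99 and 5.02 and JinB8 MHC1+ arrays 5.09, 5.35 and 5.15. Apart from the discordant controls, all its values lay between 4.96 and 5.42, and the EV groups overlapped the controls. The JinB8 CD63+ arrays were the lowest, at 5.02 or less, with the next lowest array at 5.09 and so no overlap with any other group. How many of all genes set a group apart in this way was not counted. With JinB8 CD63+ EVs PMVK was not called against beads (limma adjusted p 0.865, 0.749 and 0.37 in 18, 16 and 15 arrays). The difference of the EV groups from beads was -0.28 ± 0.19 in 18 arrays, -0.03 ± 0.10 in 16 and -0.04 ± 0.09 in 15, with no call.

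MVD encodes the decarboxylase that completes isopentenyl diphosphate. Its level was 6.75, 6.51 and 8.72 in untreated and 6.74, 6.77 and 6.96 in bead arrays. Jurkat EVs gave 7.13, 7.47 and 7.07 (CD63+) and 7.56, 7.24 and 7.18 (MHC1+), and JinB8 EVs 7.04, 7.37 and 7.59 (CD63+) and 7.30, 7.46 and 7.14 (MHC1+). All 12 EV arrays exceeded the 3 bead arrays and the 2 concordant untreated arrays, and untreated replicate 3 alone lay higher. Unlike ACAT2 and HMGCS1, MVD was not low in Jurkat MHC1+ replicate 1. The difference from beads was 0.47 ± 0.33, 0.54 ± 0.15 and 0.51 ± 0.14 in 18, 16 and 15 arrays, with limma adjusted p of 0.525, 0.738 and 0.369. Against untreated cells it was -0.03 ± 0.33 in 18 arrays and 0.67 ± 0.15 in 16, so its sign turned with 1 untreated array.

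IDI1, whose isomerase product interconverts the 5-carbon isoprenoid units, was at 7.82, 8.23 and 5.92 in untreated and 7.85, 8.07 and 5.50 in bead arrays. It reached 8.87, 8.67 and 8.78 (Jurkat CD63+), 7.60, 8.73 and 8.63 (Jurkat MHC1+), 9.14, 8.93 and 9.03 (JinB8 CD63+) and 8.84, 9.34 and 8.79 (JinB8 MHC1+). The 11 EV arrays other than Jurkat MHC1+ replicate 1 lay at least 0.39 above the highest control. Its difference from beads was 1.64 ± 0.49 in 18 arrays, 0.82 ± 0.23 in 16 and 0.91 ± 0.14 in 15 (limma adjusted p 0.525, 0.673 and 0.0114).

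FDPS encodes farnesyl diphosphate synthase, whose product also supplies protein prenylation. Its values were 7.64, 7.45 and 6.54 in untreated, 7.56, 7.26 and 6.87 in bead, 7.92, 8.21 and 8.25 in Jurkat CD63+ and 7.47, 7.91 and 8.08 in Jurkat MHC1+ arrays. They were 8.06, 8.58 and 8.14 with JinB8 CD63+ EVs and 8.31, 8.60 and 8.29 with JinB8 MHC1+ EVs. The groups overlapped only through Jurkat MHC1+ replicate 1. The difference from beads was the steadiest in size of the 5 enzymes that varied together, at 0.92 ± 0.22, 0.74 ± 0.17 and 0.78 ± 0.14 in 18, 16 and 15 arrays (limma adjusted p 0.525, 0.34 and 0.0372).

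SQLE encodes squalene epoxidase, which adds the oxygen needed to close the sterol rings. It was at 8.18, 8.36 and 6.33 in untreated and 8.54, 8.46 and 5.78 in bead arrays. Jurkat EVs gave 9.01, 9.43 and 9.41 (CD63+) and 7.80, 8.86 and 8.97 (MHC1+), and JinB8 EVs 9.40, 9.78 and 9.05 (CD63+) and 9.20, 9.54 and 9.38 (MHC1+). Here too 11 of 12 EV arrays exceeded all 6 controls. SQLE differed from beads by 1.56 ± 0.51, 0.65 ± 0.24 and 0.74 ± 0.15 in 18, 16 and 15 arrays, with no call (limma adjusted p 0.525, 0.999 and 0.0937). Against untreated cells it rose in the 15 arrays, by 0.97 ± 0.15 (limma adjusted p 0.0154).

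**Figure D1:**
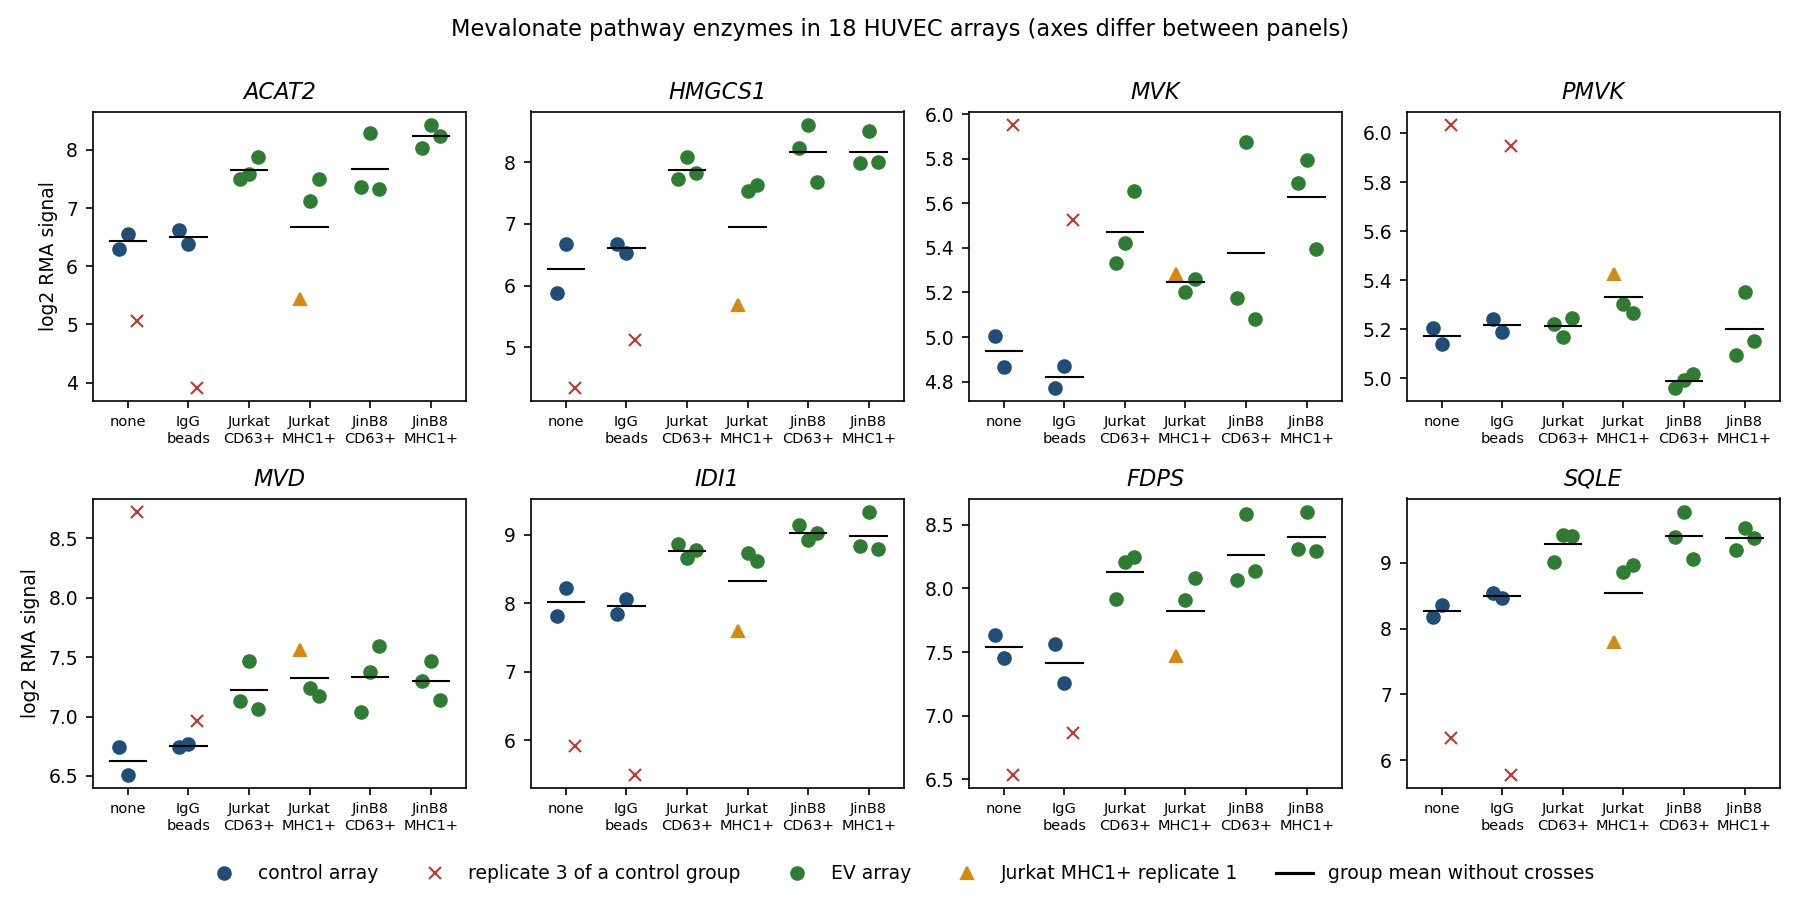
Log2 RMA signal of the 8 measured enzymes in each of the 18 HUVEC arrays by group (none: untreated cells), with crosses for replicate 3 of each control group, a triangle for Jurkat MHC1+ replicate 1 and a bar at each group mean without the crosses. For ACAT2, HMGCS1, IDI1, FDPS and SQLE, 11 of 12 EV arrays lie above all controls and the crosses lie low, whereas for MVK, PMVK and MVD the crosses lie above the other controls.

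Set against the background, no enzyme was called against beads in 18 or 16 arrays, and 4 of 8 rose in 15 arrays (ACAT2, HMGCS1, IDI1 and FDPS). Over all genes, 0.00543% were called in 18 arrays, 0.0434% in 16 and 0.152% in 15. At an unadjusted p under 0.05, 5 enzymes passed in 18 arrays and 7 in each of the smaller sets, of 705, 592 and 865 genes. The median difference of the 8 enzymes was 1.24, 0.70 and 0.76 in 18, 16 and 15 arrays, beside medians of -0.06, 0.01 and 0.00 over all genes. Of the arrays left out of the 16 one at a time, only Jurkat MHC1+ replicate 1 brought calls in this comparison. When the SD of each array was added to the model of the 16 arrays, 5 enzymes were called, of 52 genes (0.282%), against 8 genes without that term. In bulk RNA, fewer cells that express a gene and less RNA per cell cannot be told apart.

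Against untreated cells, 0 of 8 were called in 18 and 16 arrays and 4 of 8 rose in 15 (ACAT2 by 1.29, HMGCS1 by 1.67, IDI1 by 0.84 and SQLE by 0.97). The background was 0.00543%, 0.0326% and 0.147% of all genes, and 5, 7 and 7 enzymes passed at an unadjusted p under 0.05, of 1076, 559 and 1054 genes. This comparison shares its EV arrays with the one against beads, so it is no separate evidence. Between beads and untreated cells, 0 enzymes and 0% of genes were called by limma in 18 and in 16 arrays (0 enzymes at an unadjusted p under 0.05, of 204 and 188 genes). In 16 arrays the largest such difference was that of HMGCS1, 0.33 ± 0.49.

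The count of genes in which every EV array exceeded every control also depended on the 3 doubted arrays. With all 18 arrays it was 0.0543% of genes and 0 enzymes. Without both discordant controls it was 0.0923% of genes and 2 enzymes, MVK and MVD. Without Jurkat MHC1+ replicate 1 as well, it was 0.206% of genes, 38 in number, and 7 of these were the enzymes other than PMVK. In Jurkat MHC1+ replicate 1 the fibroblast and smooth muscle markers averaged 5.64, against 5.04 to 5.34 in the other 15 concordant arrays, and its T cell markers 4.64, against 4.10 to 4.41. Their part in the low levels of the 5 enzymes there was not tested.

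**Figure D2:**
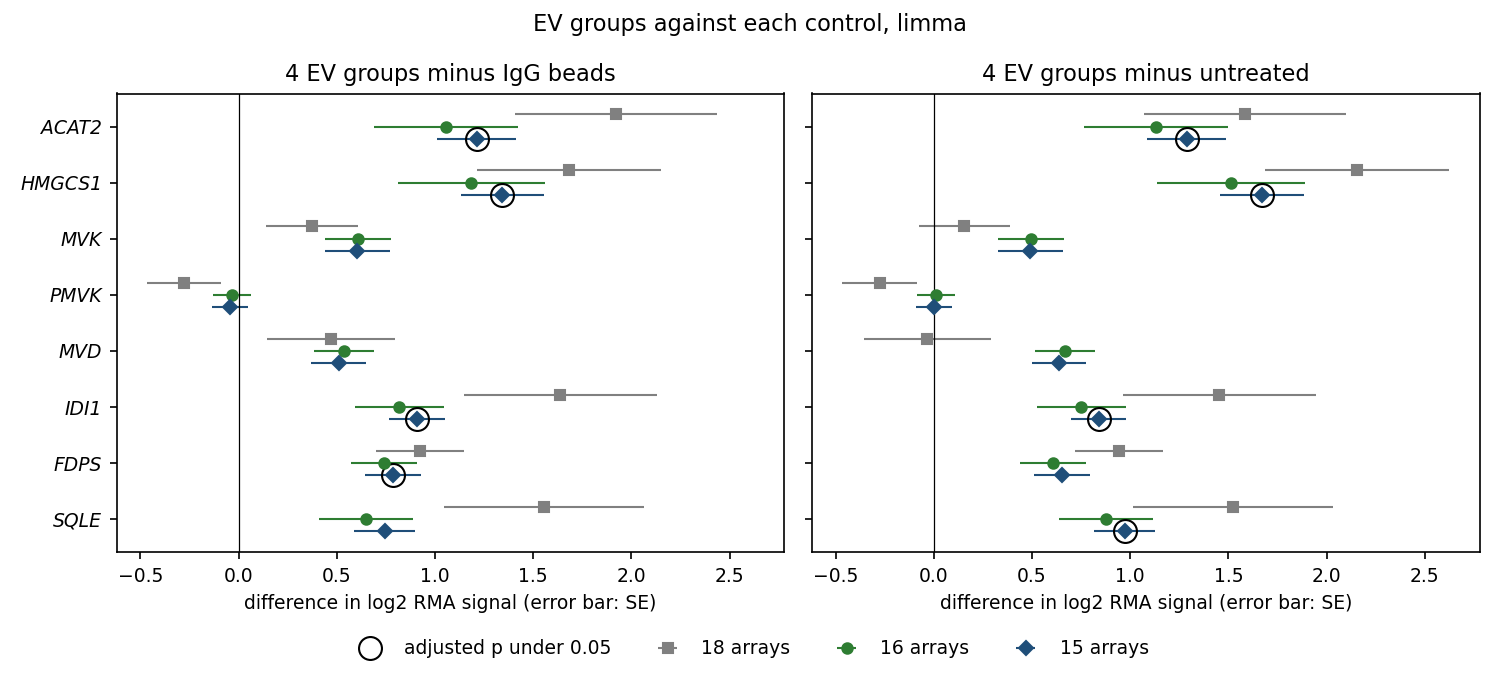
Difference in log2 RMA signal of the 4 EV groups from IgG beads (left) and from untreated cells (right) for each enzyme, with SE bars, in 18, 16 and 15 arrays; circles mark adjusted p under 0.05. Leaving out the discordant controls shortens the differences of ACAT2, IDI1 and SQLE from beads to 1.06, 0.82 and 0.65, and the calls appear in the 15 arrays.

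Each EV group was also set against beads. With JinB8 MHC1+ EVs, 5 enzymes rose in 15 arrays: ACAT2 by 1.73 ± 0.24, HMGCS1 by 1.56 ± 0.25, IDI1 by 1.03 ± 0.17, FDPS by 0.99 ± 0.17 and SQLE by 0.87 ± 0.18 (limma adjusted p 0.00147 to 0.0417). The array left out between 16 and 15 arrays is in neither group compared, so these differences were the same in 16 arrays. Only the shared estimate of the spread changed, with an SE of 0.44 for ACAT2 in 16 arrays. No enzyme was called in 18 or 16 arrays, and the background was 0.0434%, 0.212% and 0.63% of genes in 18, 16 and 15 arrays. FDPS came nearest in the 16, with a limma adjusted p of 0.0689. It was called when Jurkat MHC1+ replicate 3 was left out of the 16 (55 genes called in all), and FDPS and MVK were called when JinB8 CD63+ replicate 2 was left out (47 genes).

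With JinB8 CD63+ EVs, 3 enzymes rose in 15 arrays, HMGCS1 by 1.57 ± 0.25, IDI1 by 1.07 ± 0.17 and FDPS by 0.85 ± 0.17. ACAT2 (1.16 ± 0.24) and SQLE (0.91 ± 0.18) had limma adjusted p of 0.0537 and 0.0506. The background was 0.00543%, 0.0923% and 0.293%. The 3 arrays of this group and the 2 concordant bead arrays did not overlap for these 5 genes. How common such separation is among all genes was not counted, so it adds nothing to the calls.

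With Jurkat CD63+ EVs no enzyme was called, where 0.00543% of genes were called in 18 and in 16 arrays and 0.0434% in 15. The differences in 15 arrays were 1.15 ± 0.24 for ACAT2, 1.27 ± 0.25 for HMGCS1, 0.81 ± 0.17 for IDI1, 0.71 ± 0.17 for FDPS and 0.78 ± 0.18 for SQLE, and 7 of 8 enzymes had an unadjusted p under 0.05, of 515 genes. For Jurkat CD63+ EVs the differences were the same in 16 arrays, with an SE of 0.44 for ACAT2. With Jurkat MHC1+ EVs no enzyme and 0% of genes were called by limma in 18, 16 or 15 arrays. There 0, 1 and 5 enzymes had an unadjusted p under 0.05, of 219, 1718 and 414 genes, and the median difference of the enzymes was 0.72, 0.35 and 0.52. The 4 groups share the same bead arrays, so these comparisons are not independent of one another. The moderated F test over the 6 groups called 5 enzymes in 15 arrays (ACAT2, HMGCS1, IDI1, FDPS and SQLE, adjusted p 0.00183 to 0.0263) and none in 18 or 16. The background of that test was 0.0109%, 0.233% and 0.662%, and 5, 7 and 7 enzymes passed at an unadjusted p under 0.05, of 201, 1486 and 2096 genes.

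Ordered by group mean in the 16 arrays, both control groups were the lowest for all enzymes but PMVK, and Jurkat MHC1+ cells came next for all of these but MVD. ACAT2 ran from 6.43 ± 0.18 (SD, n = 2) in untreated cells through 6.50 ± 0.16 (n = 2) with beads, 6.68 ± 1.10 (n = 3) with Jurkat MHC1+, 7.66 ± 0.20 with Jurkat CD63+ and 7.66 ± 0.55 with JinB8 CD63+ to 8.24 ± 0.20 with JinB8 MHC1+ EVs. Neighbouring groups in this order overlapped except Jurkat MHC1+ and Jurkat CD63+, which met at 7.50 without crossing. For IDI1 and FDPS every pair of neighbours overlapped. For HMGCS1 and SQLE the step from Jurkat MHC1+ to Jurkat CD63+ was free of overlap, as was that from untreated to bead cells for SQLE, and for MVK and MVD the step from the controls to the EV groups was. The step of SQLE between the Jurkat groups was from 8.97 to 9.01. The share of all genes that separate neighbouring groups in this way was not counted, so these steps cannot be called particular to the enzymes. Without its replicate 1, the Jurkat MHC1+ mean of ACAT2 was 7.31 ± 0.27 (SD, n = 2).

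The vesicles of both T cell lines were compared within the 12 EV arrays, which leaves the discordant controls out. JinB8 EVs gave higher means than Jurkat EVs for 7 of 8 enzymes, with a median difference of 0.41 beside -0.02 over all genes, and none was called (background 0.0217%). ACAT2 differed by 0.78 ± 0.30, HMGCS1 by 0.76 ± 0.29, SQLE by 0.48 ± 0.20, IDI1 by 0.47 ± 0.18 and FDPS by 0.36 ± 0.13, each with a limma adjusted p of 0.818. At an unadjusted p under 0.05 were 6 enzymes, of 984 genes, namely these 5 and PMVK, which was lower with JinB8 EVs (-0.18 ± 0.08). Without Jurkat MHC1+ replicate 1 the difference of ACAT2 was 0.47 ± 0.17 and that of HMGCS1 0.44 ± 0.15, again with no enzyme called (0.0543% of genes called, 5 enzymes of 1028 genes at an unadjusted p under 0.05).

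Within MHC1+ EVs the difference between the lines was 1.56 ± 0.42 for ACAT2, 1.21 ± 0.41 for HMGCS1, 0.83 ± 0.28 for SQLE, 0.67 ± 0.25 for IDI1 and 0.58 ± 0.19 for FDPS (limma adjusted p 0.13 to 0.156). No enzyme was called, beside 0.233% of genes, and 5 enzymes were among the 4769 genes with an unadjusted p under 0.05. When Jurkat MHC1+ replicate 3 was left out of the 12 arrays, 5 enzymes were called, beside 23.9% of genes. In the 11 arrays without Jurkat MHC1+ replicate 1, ACAT2 differed by 0.93 ± 0.25 (limma adjusted p 0.21). There 0.255% of genes were called, and 4 enzymes of 2225 genes had an unadjusted p under 0.05. All 3 JinB8 MHC1+ arrays lay above all 3 Jurkat MHC1+ arrays for ACAT2, HMGCS1, IDI1, FDPS and SQLE, with or without the first Jurkat array. The share of all genes that separate these groups in that way was not counted, so the separation cannot be called particular to the enzymes.

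Within CD63+ EVs the same difference was 0.01 ± 0.42 for ACAT2 and 0.30 ± 0.41 for HMGCS1, and no enzyme and 0% of genes were called by limma (0 enzymes at an unadjusted p under 0.05, of 617 genes). The test of whether the line difference depended on the capture gave -1.55 ± 0.59 for ACAT2, with an adjusted p of 0.186 by limma, and no enzyme was called beside 0.0217% of genes. In that test ACAT2 was the 1 enzyme of 8 with an unadjusted p under 0.05, as were 4563 of the 18417 genes. Without Jurkat MHC1+ replicate 3, 1 enzyme was called, beside 16.4% of genes. In the 11 arrays without Jurkat MHC1+ replicate 1, the value of ACAT2 in that test was -0.92 ± 0.34 (limma adjusted p 0.237). CD63+ and MHC1+ EVs over both lines gave no call among the enzymes in 12 arrays (background 0.0163%) or in 11 (0.0597%), with 0 enzymes at an unadjusted p under 0.05 in either, of 686 and 1657 genes. Split by line, the captures gave no call with Jurkat EVs (0% of genes called by limma, 3 enzymes of 1522 genes at an unadjusted p under 0.05) or with JinB8 EVs (0.0923%).

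**Figure D3:**
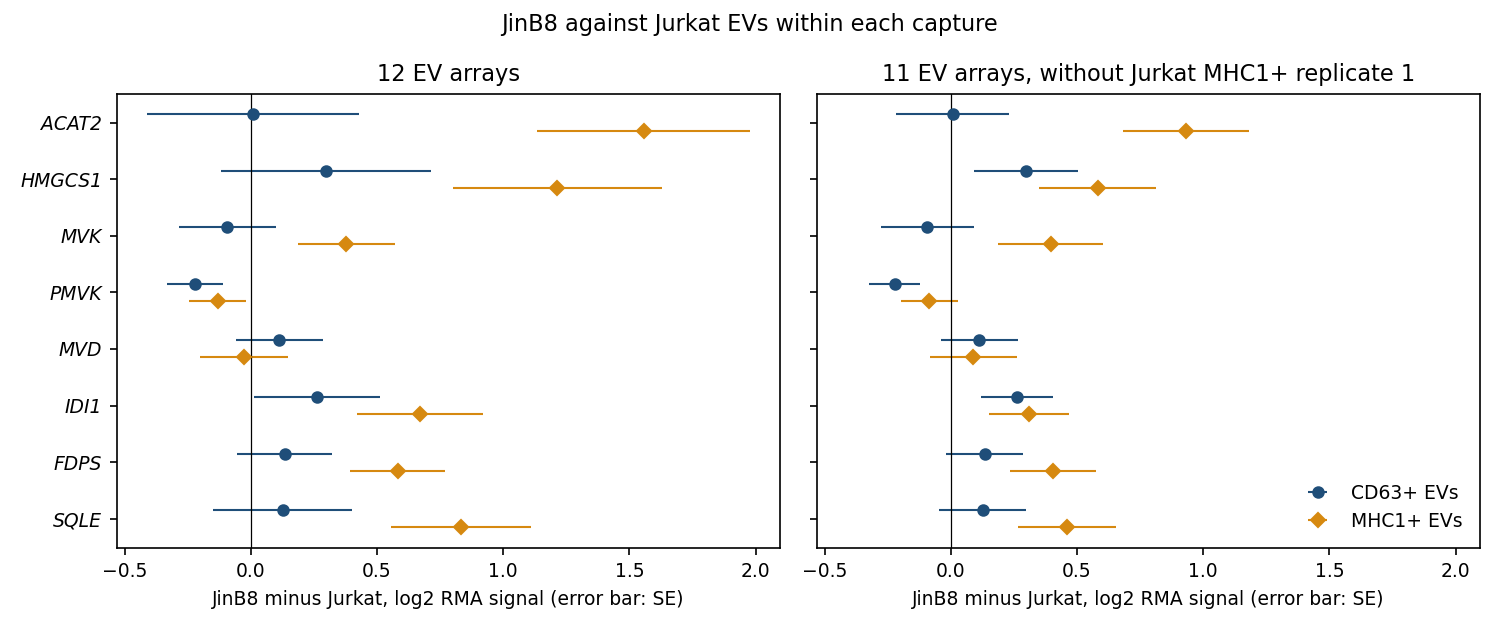
Difference in log2 RMA signal between HUVEC kept with JinB8 and with Jurkat EVs, by capture, for each enzyme with SE bars, in 12 EV arrays (left) and without Jurkat MHC1+ replicate 1 (right). ACAT2 has a difference of 1.56 within MHC1+ and 0.01 within CD63+ EVs in 12 arrays, and 0.93 within MHC1+ EVs in 11; no value was called.

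The enzymes varied together in part. In the 16 arrays the 10 pairs among ACAT2, HMGCS1, IDI1, FDPS and SQLE correlated at 0.84 to 0.98 (Pearson's r, median 0.91). This group of 5 was formed after their values were seen, and the arrays share the split between controls and EV groups. In the 11 EV arrays without Jurkat MHC1+ replicate 1 the same pairs ranged from 0.32 to 0.92 (median 0.74), and IDI1 with ACAT2 was the lowest. MVK correlated with the other enzymes at a median of 0.70 in both sets of arrays. In the 11 it had r of 0.86, 0.70, 0.84 and 0.72 with ACAT2, HMGCS1, FDPS and SQLE. IDI1 had 0.32, 0.58, 0.43 and 0.39 with the same genes. The group of 5 therefore does not set MVK apart in those 11 arrays. The median for MVD was 0.45 in 16 arrays and 0.13 in the 11. For PMVK it was -0.35 in 16 arrays and -0.08 in the 11.

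**Figure D4:**
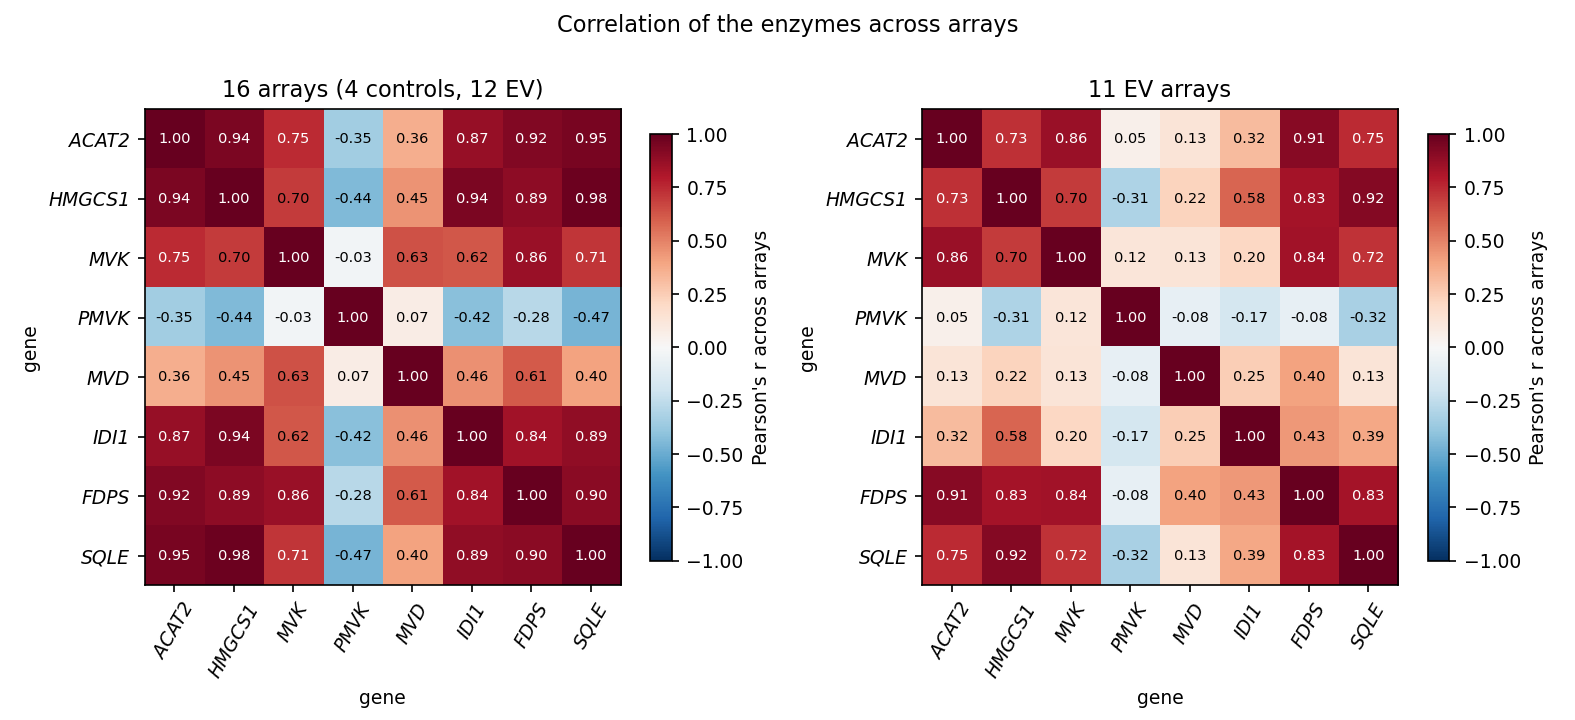
Pearson's r between each pair of enzymes across 16 arrays (4 controls and 12 EV arrays, left) and across 11 EV arrays (right), on a colour scale from -1 to 1. The 5 enzymes ACAT2, HMGCS1, IDI1, FDPS and SQLE have r of 0.84 or more with each other on the left, and PMVK has r below or near 0 with all others.

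The genes most like the enzymes were found by correlating every other gene with the enzymes' mean centred value over the 16 arrays. The 10 highest were CYP51A1 (r = 0.98), FADS1 (0.98), MSMO1 (0.97), LSS (0.97), SCD (0.96), INSIG1 (0.95), LPIN1 (0.95), EBP (0.93), NSDHL (0.92) and TPRG1L (0.91). CYP51A1, MSMO1, LSS, EBP and NSDHL encode enzymes that carry squalene epoxide on to cholesterol, and FADS1 and SCD encode fatty acid desaturases. Over all 18 arrays the values of these 10 were 0.85 to 0.96. In the 11 EV arrays CYP51A1 kept 0.92 and INSIG1 0.93, whereas TPRG1L had 0.46.

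Genes of the later steps of the pathway were also called. Of 11 genes from lanosterol synthesis to cholesterol, 9 were measured, and 0, 1 and 4 rose against beads in 18, 16 and 15 arrays, with median differences of 1.08, 0.73 and 0.81. DHCR7, the last reductase of one branch, was called in the 16 arrays, by 1.01 ± 0.13 (limma adjusted p 0.00997). In the 15 arrays MSMO1 rose by 1.31 ± 0.16, DHCR7 by 1.03 ± 0.12, CYP51A1 by 0.96 ± 0.15 and LSS by 0.81 ± 0.12. DHCR7 lay at 8.97, 8.71 and 4.66 in the bead arrays and at 9.52, 9.73 and 9.92 with Jurkat MHC1+ EVs. Replicate 1 of that group lay above every control for DHCR7. It was still the lowest of the EV arrays, with the others at 9.70 to 10.12.

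Of 15 genes that sense sterols or control the pathway, 12 were measured, and 0, 1 and 1 rose against beads in 18, 16 and 15 arrays. The gene called was INSIG1, which encodes an anchor of SREBP in the endoplasmic reticulum, by 1.32 ± 0.21 in 16 arrays (limma adjusted p 0.0319) and 1.36 ± 0.18 in 15. Its bead values were 8.10, 8.14 and 6.33, and all 12 EV arrays lay between 8.56 and 9.99. SREBF2, the gene of SREBP-2 itself, was called only with JinB8 CD63+ EVs in the 15 arrays, by 0.67 ± 0.12 (limma adjusted p 0.0233), and whether it differed there from the other EV groups was not tested. The median of the 12 genes was 0.57, 0.04 and 0.04.

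Genes that draw on the pathway's intermediates for prenylation, dolichol and ubiquinone were not called, with 11 of 12 measured and a median difference from beads of 0.13 in 18, -0.10 in 16 and -0.08 in 15 arrays. Genes of acetyl-CoA supply and the mitochondrial or peroxisomal counterparts of the enzymes, 5 of 7 measured, were not called either, with medians of 0.50, 0.25 and 0.28. No endothelial, T cell or fibroblast and smooth muscle marker was called in the comparisons with beads and untreated cells. In 16 arrays the median difference from beads was -0.09 over the 12 endothelial and 0.02 over the 11 T cell markers. The T cell markers averaged 4.10 to 4.41 in the 11 EV arrays and 4.18 to 4.35 in the 4 concordant controls.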

How the data were processed

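Total RNA of 18 HUVEC samples was measured on Affymetrix whole-transcript arrays. Per the submitters' processing notes, the authors used Affymetrix Expression Console and RMA, with no version named. The deposited values were taken as log2 RMA signal, a scale read from their range. RMA normalizes arrays together, so each value depends on the set processed with it. No read depth applies to arrays, whose number limits the precision.

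Of 33297 probe sets, 12083 had no gene and 1754 several symbols in the platform annotation. The other 19460 gave 18417 genes, each by its probe set with the highest mean. No filter on level was used. limma 3.58.1 in R 4.3.3 (lmFit, eBayes, two-sided) was fitted with 1 mean per group, to 18 arrays for comparisons with controls and to 12 EV arrays between vesicles, and the code was tested on simulated data. Levels carry the SD and differences the SE. Tables were made in Python 3.11.15 (numpy 2.4.6, pandas 2.3.3) and plots with matplotlib 3.10.9.

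Groups came from the bracketed part of the sample titles, since 5 of 6 JinB8 arrays carry other numbers in the free text. The enzymes, gene lists, marker lists and alternatives were chosen with earlier results of these data known. All 9 enzymes were named, up to 4 called genes of each other list, and the 10 genes most correlated with the enzymes' mean. DHCR7, INSIG1 and SREBF2 are called genes of those lists. Alternatives were 16 and 15 arrays, leaving out each array, other scalings, array weights, the array SD as a covariate, limma with trend and robust options, a filter on low levels, and the mean of a gene's probe sets.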

Additional observations from a re-analysis of the deposited data

How the results depend on the processing

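The calls depended on the arrays used. Where the fit on 18 arrays called 0 enzymes, the 15 arrays called 4 against beads, 4 against untreated cells, 3 with JinB8 CD63+ EVs, 5 with JinB8 MHC1+ EVs and 5 in the F test, and the 16 arrays with each array's SD in the model called 5 against beads (52 genes in all). Array weights, whose estimation did not converge, called 7 against beads, 7 against untreated cells, 5 between beads and untreated cells, 7 and 8 with Jurkat CD63+ and MHC1+ EVs, 7 and 7 with JinB8 CD63+ and MHC1+ EVs and 8 in the F test. Between vesicles they called 4 for JinB8 against Jurkat, 6 within MHC1+, 3 for the interaction, and 2 and 1 for CD63+ against MHC1+ within Jurkat and JinB8. Those fits also called many of the 18417 genes: 8112, 12811 and 13869 in the first 3 comparisons, 4039, 10081, 3314 and 9317 in the 4 single groups and 17584 in the F test, then 1588, 11669, 8760, 6822 and 5781 between vesicles.

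Leaving out 1 array at a time gave 0 to 5 calls for JinB8 against Jurkat within MHC1+ EVs and 0 to 1 for the interaction, the highest without Jurkat MHC1+ replicate 3, where 4398 and 3015 genes were called. Against untreated cells, PMVK turned from -0.28 to 0.011 in 16 arrays, and MVD from -0.03 to 0.67 in 16, 0.64 in 15 and 0.49 with weights. Leaving out 1 array gave -0.44 to 0.67 for MVD, -0.048 to 0.50 for MVK and -0.44 to 0.011 for PMVK. Between beads and untreated cells, the 16 and 15 arrays turned the sign of ACAT2 (0.075), PMVK (0.044), MVD (0.13), FDPS (-0.13) and SQLE (0.23). Median centring and a further quantile step turned PMVK (0.031 and 0.050), and weights ACAT2 (0.088), MVD (0.024), IDI1 (0.24), FDPS (-0.37) and SQLE (0.28). Leaving out 1 array there gave ACAT2 -0.82 to 0.53, HMGCS1 -0.17 to 0.99, MVK -0.45 to 0.12, PMVK -0.24 to 0.29, MVD -0.91 to 0.20, IDI1 -0.89 to 0.63, FDPS -0.31 to 0.24 and SQLE -0.68 to 0.87. Beyond the arrays left out, the cause was not tested. Against beads, no enzyme changed sign under these settings. Median centring put the median of all genes at -0.10 against beads and -0.13 with JinB8 MHC1+ EVs.

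No paired analysis was possible because the labels give no replicate numbers, and the numbers here follow accession order only. With 3 arrays per group, and 2 in each control group once the discordant arrays are left out, the number of control arrays limits the precision of every comparison with them.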
